A study of Arabidopsis thaliana with 27 samples.

Results

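Callus of the Arabidopsis thaliana mutant upf3-1 was compared after 3 days and after 0 days on shoot-inducing medium. The 6 arrays of this comparison were chosen by genotype and day, 3 for each day, out of 27 arrays in the series. Each array measured biotin-labelled cRNA from 1 RNA sample on an Affymetrix Arabidopsis array. The remaining 21 arrays hold wild type Columbia on days 0, 3 and 6, the UPF1 mutant that the labels call lba1-1/upf1-1 (here upf1-1) on the same days, and upf3-1 on day 6, with 3 arrays in each group. In every group, hypocotyls of 12-day-old seedlings had spent 6 days on callus-inducing medium before the move to shoot-inducing medium on day 0. No group remained on callus-inducing medium, so time and the change of medium cannot be told apart. Whether replicates are separate cultures is not stated in the labels, so a p-value covers the spread among these samples alone, and that spread may be technical. Fewer cells of a type and less RNA per cell cannot be told apart in such bulk samples.

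UPF3 is a core factor of nonsense-mediated mRNA decay (NMD), which degrades transcripts whose stop codon lies too early or in an unusual place. In shoot regeneration from explants, tissue is first held on an auxin-rich medium, where callus forms along a route that resembles the start of a lateral root, and is then moved to a cytokinin-rich medium, where shoot meristems can arise. Type-A response regulators are rapidly induced by cytokinin and damp its signal, while GH3 enzymes, Aux/IAA repressors and LBD factors respond to auxin.

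Values are log2 signals after RMA, a procedure that gives all arrays the same distribution of signals and thereby hides a change shared by most transcripts. A difference of 1 on this scale is a 2-fold change. UPF3 itself was low in all upf3-1 arrays, with day 0 signals of 6.03, 6.19 and 6.08 and day 3 signals of 5.98, 6.38 and 5.87. The wild type arrays read 9.08, 9.08 and 9.0 on day 0 and 9.12, 9.14 and 8.99 on day 3, so the genotypes did not overlap. In upf3-1, the level differed between the days by −0.02 ± 0.10 (SE; limma adjusted p = 0.91). The sources used here do not say whether the probes lie outside the disrupted part of the gene. All 27 arrays had their nearest neighbour within their own group, including the upf1-1 day 0 array whose title says in part that it is wild type. LBD16, PUCHI and BBM, which are active in auxin-induced callus, were well expressed in all day 0 arrays of upf3-1, at 7.67 or above.

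Early exposure to shoot-inducing medium was accompanied by changes in many transcripts of upf3-1 callus. Of 13286 genes tested with limma, 4181 (31.5%) were called at an adjusted p under 0.05, of which 1804 (13.6%) rose and 2377 (17.9%) fell. The 3 arrays of day 3 did not overlap those of day 0 in 5477 genes (41.2%). Most of the called changes were small. Among risers, 1073 changed less than 1.5-fold, and 18 changed 8-fold or more. Among fallers, 1691 changed less than 1.5-fold, and 6 changed 8-fold or more. At least 2-fold changes were called for 318 risers (2.39%) and 207 fallers (1.56%). The median log2 difference over all genes was −0.03. When the arrays were centred on the poly-A spike-in controls instead, that median moved to 0.31 and the calls became 4199 higher and 385 lower. The spike-in controls averaged 6.00 ± 0.14 (SD, n = 3) on day 0 and 5.66 ± 0.12 on day 3 in upf3-1. Directions given here are relative to the distribution that all arrays share.

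Most of the largest increases were seen in genes with a low signal on day 0. AT4G23670, which encodes a protein of the Bet v 1 family of small proteins with a ligand-binding pocket, read 4.94, 4.52 and 3.54 on day 0 and 11.34, 10.50 and 11.11 on day 3. The days were far apart, with a log2 difference of 6.65 ± 0.37 (adjusted p = 2.7e-12). Its neighbour in the family AT4G23680 read 3.53, 3.2 and 3.15 on day 0 and 8.56, 7.99 and 8.57 on day 3, a difference of 5.08 ± 0.15 (adjusted p = 4.2e-17). AT3G26450, a further Bet v 1 family gene, rose by 3.89 ± 0.24. The gene table gives only a locus for most of the other strong risers, and no role is given to them here. AT4G11190 was at 3.38, 3.65 and 2.91 on day 0 and at 9.47, 8.72 and 9.13 on day 3, which is 5.79 ± 0.28 higher. AT2G16005 was at 4.34, 4.76 and 3.83 on day 0 and at 10.99, 8.36 and 9.50 on day 3. Its day 3 arrays were all high but spread widely, and the difference of 5.31 ± 0.61 has the largest error among the 12 highest risers. AT5G37990, AT1G27030, AT1G14120, AT1G49500, AT2G33850 and AT1G14240 rose by 3.61 to 5.26. The 12th, GSTU20, a tau-class glutathione S-transferase, read 4.88, 5.23 and 5.28 on day 0 and 8.76, 8.09 and 8.41 on day 3 (3.29 ± 0.19, adjusted p = 6.3e-12).

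The strongest decreases began at moderate to high levels. AT4G09940, which encodes a GTPase, fell from 7.37, 7.53 and 7.18 to 2.92, 3.45 and 3.16, a log2 difference of −4.18 ± 0.13 (adjusted p = 1.1e-16). PUCHI, an AP2/ERF factor that patterns lateral root primordia, fell from 7.97, 7.67 and 8.04 to 4.67, 4.95 and 4.95 (−3.04 ± 0.14, adjusted p = 5.8e-14). ASPGB1, an asparaginase that releases ammonium from asparagine, fell from 9.60, 9.03 and 9.40 to 6.34, 6.12 and 6.10 (−3.16 ± 0.13, adjusted p = 1.7e-14). In each of these genes the lowest day 0 array lay well above the highest day 3 array. OSM34, an osmotin-like defence protein, fell from 10.45, 10.29 and 10.06 to 7.25, 7.24 and 7.87, and its day 6 arrays read 9.58, 9.94 and 9.57. GH3.1 (described with the auxin genes), the polygalacturonase-like AT5G14650, the pseudogene AT2G17490, the purple acid phosphatase PAP20, AT5G02540, AT1G05577, AT2G03850 and AT3G48460 made up the rest of the 12, with differences of −3.30 to −2.80. BBM, an AP2 factor of the PLETHORA clade that promotes embryo and root meristem fate, fell from 8.71, 8.71 and 8.74 to 6.84, 6.26 and 6.54 (−2.18 ± 0.13, adjusted p = 8.6e-12). On day 6 BBM read 5.14, 5.23 and 5.28, below all of the day 3 arrays.

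**Figure D1:**
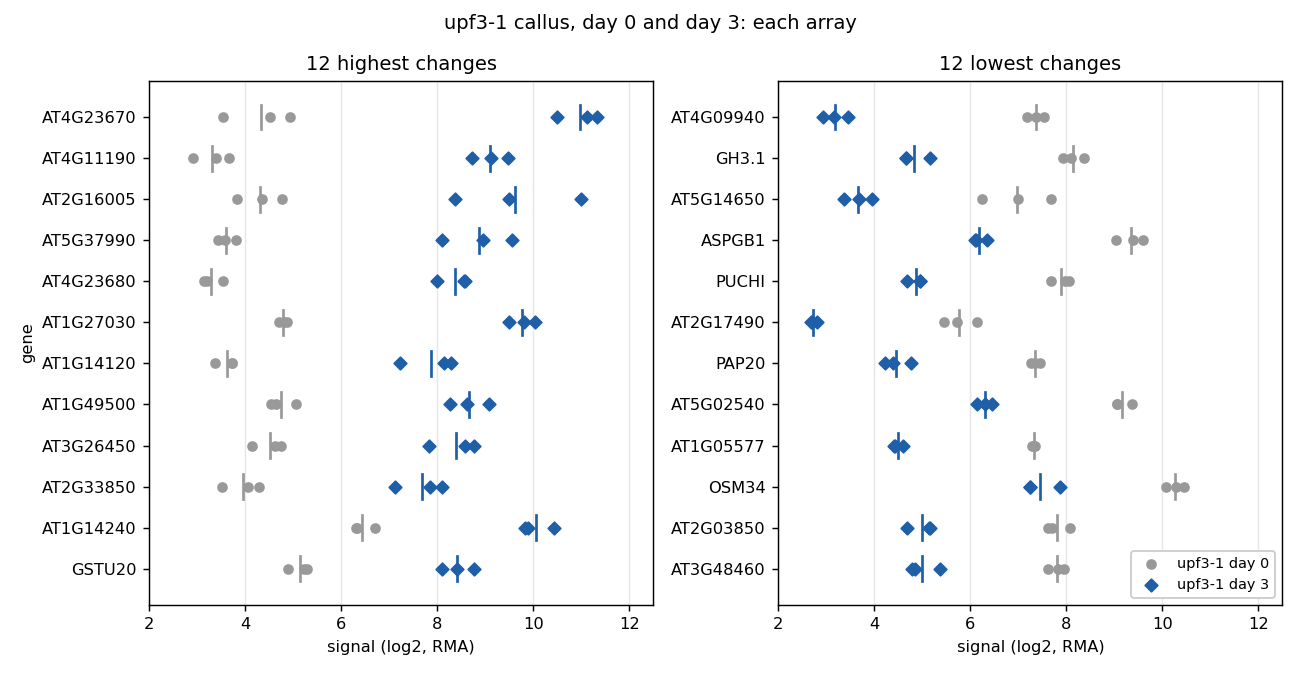
Log2 RMA signal of the 12 genes with the highest (left) and the 12 with the lowest (right) log2 change among genes called in upf3-1 with no overlap between days. Grey circles are the 3 day 0 arrays, blue diamonds the 3 day 3 arrays and ticks the group means. The day 3 arrays of AT2G16005 run from 8.36 to 10.99, the widest spread among the risers shown, and AT4G09940 falls from above 7 to below 3.5.

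Both measured type-A response regulators rose, against 13.6% of all genes. RR16 (also named ARR16) read 3.74, 3.86 and 3.87 on day 0 and 7.2, 6.50 and 6.62 on day 3, a difference of 2.94 ± 0.21 (adjusted p = 1.3e-10). ARR15 was already well expressed on day 0, at 7.89, 7.87 and 7.67, and read 9.59, 9.85 and 9.63 on day 3, a difference of 1.88 ± 0.11 (adjusted p = 3.1e-12). All day 3 arrays were above all day 0 arrays in both genes. On day 6 RR16 read 7.37, 6.68 and 6.83 and ARR15 read 9.80, 9.66 and 9.59, which is close to day 3. These are 2 of 27 listed genes of cytokinin response and breakdown, and the other 25 were not measured by a probe set with a single gene symbol.

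Early auxin response genes moved mostly down. Of 14 measured members (of 42 listed), 9 fell and 3 rose, against 17.9% and 13.6% of all genes. The median difference was −0.65, against −0.03 over all genes. GH3.1, of the GH3 family whose members join auxin and other acids to amino acids, read 7.93, 8.36 and 8.10 on day 0 and 4.67, 4.66 and 5.15 on day 3 (−3.30 ± 0.21, adjusted p = 3.2e-11). LBD16, which acts below auxin response factors when a lateral root is founded, went from 8.84, 8.66 and 8.78 to 6.20, 6.72 and 6.50 (−2.28 ± 0.14, adjusted p = 2.3e-11). IAA20, an Aux/IAA protein without the usual degron, went from 7.99, 7.66 and 8.10 to 5.29, 5.73 and 6.00 (−2.24 ± 0.17, adjusted p = 4.6e-10). The groups did not overlap in any of these genes. WES1 (a GH3 enzyme), IAA30, LBD29, GH3.3, IAA33 and IAA29 fell as well, with differences of −1.06 to −0.53. IAA31 rose by 0.72, IAA18 by 0.46 and HAT2, an auxin-induced HD-Zip II factor, by 0.38. GH3.17 and IAA34, with differences of 0.38 and 0.23, were not called. Limma called none of the 3 measured genes of auxin synthesis and transport, and 0 had an unadjusted p under 0.05. Their median was −0.19 and became 0.14 with centring on the spike-in controls. YUC4 and YUC2, flavin monooxygenases of auxin synthesis, differed by −0.26 ± 0.17 (adjusted p = 0.29) and −0.19 ± 0.10 (adjusted p = 0.17).

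Genes of root meristem and lateral root founder cells fell together. All 4 measured members (of 16 listed) were called lower on day 3, against 17.9% of all genes, with a median of −1.78. These were PUCHI and BBM, described above, and 2 receptor kinases. CR4, which controls formative divisions in root tips and lateral root primordia, went from 6.56, 6.32 and 6.86 to 5.37, 5.09 and 5.13 (−1.38 ± 0.14, adjusted p = 3.5e-08). AT5G48940, listed as the leucine-rich repeat kinase RCH1, went from 9.49, 9.21 and 9.48 to 8.59, 7.57 and 8.08 (−1.32 ± 0.19, adjusted p = 7.5e-06). Both kinases were lower in every day 3 array. They were lower again on day 6, when AT5G48940 read 6.35, 6.78 and 6.91 and CR4 read 4.99, 4.70 and 4.94.

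Shoot meristem and leaf primordium genes showed little difference by day 3. Of 4 measured members (of 26 listed), 1 fell and none rose, against 17.9% and 13.6% of all genes. The median of the list was −0.13, which became 0.21 with centring on the spike-in controls. LAS, a GRAS factor of axillary meristems, read 5.88, 6.28 and 5.92 on day 0 and 5.40, 5.70 and 5.65 on day 3 (−0.44 ± 0.12, adjusted p = 0.0068). That call was lost without upf3-1 day 0 replicate 2, without day 3 replicate 1 and with that centring (adjusted p = 0.65). CLV3, the peptide that limits the stem cell pool of the shoot meristem, differed by −0.06, YAB3 by −0.20 and PHV by 0.10, and none of these was called. No member of the stomatal lineage list passed the limma test (3 of 7 measured, median −0.02, 0 with an unadjusted p under 0.05), with MUTE at 0.03 ± 0.11 and FMA at −0.04 ± 0.12. MUTE and FMA read 2.97 to 3.55 in the 6 arrays, where the lowest value of the table is 2.04. No detection call was used, so a steady low level and an undetected transcript cannot be told apart.

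Some photosynthesis genes were higher on day 3. Of 9 measured members (of 42 listed), 5 rose and none fell, against 13.6% and 17.9% of all genes, with a median of 0.43. PRK, the Calvin cycle kinase that makes ribulose bisphosphate, read 5.67, 5.83 and 6.08 on day 0 and 6.32, 7.04 and 6.55 on day 3 (0.78 ± 0.18, adjusted p = 0.0018). LHCB4.3, an antenna protein of photosystem II, rose by 0.63 ± 0.16, RCA, the activase of Rubisco, by 0.52 ± 0.13, PSBW by 0.45 ± 0.17 and PSBY by 0.43, while LHCB4.2 was at −0.36 and not called. The count of risers was 3 when upf3-1 day 0 replicate 1, day 0 replicate 3 or day 3 replicate 2 was left out. PRK read 6.79, 7.22 and 7.47 on day 6.

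Genes of cell division were lower on day 3. All 3 measured members of the cell cycle and replication list (of 40 listed) fell, against 17.9% of all genes, with a median of −1.04. AUR1, an Aurora kinase of the mitotic spindle, went from 9.12, 9.17 and 8.99 to 7.88, 7.99 and 8.02 (−1.13 ± 0.09, adjusted p = 6.5e-10), and AUR2 fell by 0.70 ± 0.09. PRL, the MCM7 subunit of the replicative helicase, went from 9.46, 9.70 and 9.61 to 8.60, 8.56 and 8.51 (−1.04 ± 0.07, adjusted p = 1.2e-10). The arrays of the 2 days did not overlap for any of these. Among genes grouped by symbol after their values were seen, 6 of 7 histone genes fell. HTR12, the histone H3 variant of centromeres, fell by 1.12 ± 0.10, the histone H2B genes HTB1 and HTB2 fell by 1.04 ± 0.08 and 0.85 ± 0.10, and HTB11, HTB4 and HON4 fell by smaller amounts. These last 3 calls were lost with centring on the spike-in controls, where HTB4 also turned positive, 3 histone genes fell and their median went from −0.48 to −0.14. The exception was the stress-related linker histone HIS1-3, which read 6.85, 6.30 and 6.38 on day 0 and 8.94, 8.71 and 8.69 on day 3 (2.27 ± 0.39, adjusted p = 8e-05). TOPII, the topoisomerase that untangles sister chromatids and was also chosen after its values were seen, fell by 1.1 ± 0.11, and POLA3 and POLD3, subunits of replicative DNA polymerases, fell by 0.57 and 0.51. The calls of both polymerase subunits were lost with that centring (adjusted p = 0.18 and 0.34), as was that of AUR2. TERT, the reverse transcriptase of telomerase, was chosen in the same way and read 5.38, 5.42 and 5.78 on day 0 and 4.2, 4.41 and 4.25 on day 3 (−1.24 ± 0.13).

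**Figure D2:**
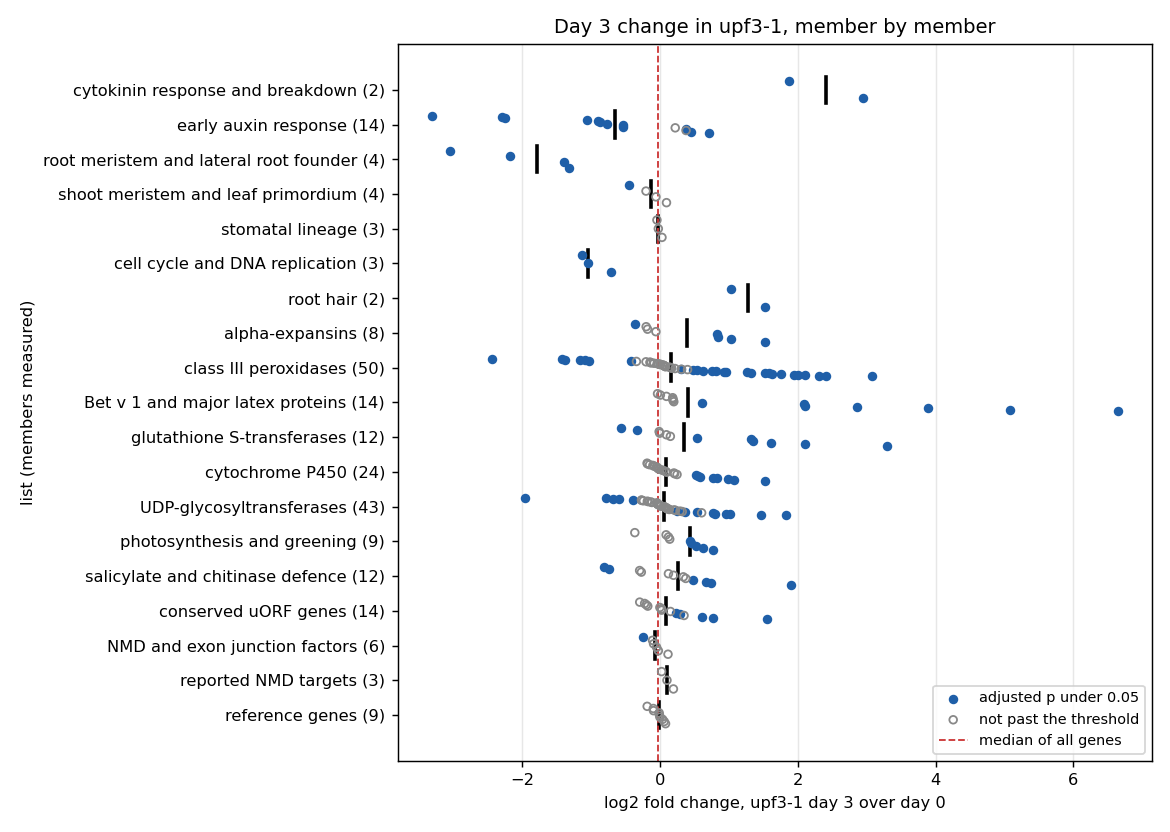
Log2 difference between day 3 and day 0 in upf3-1 (horizontal axis) for each measured member of 19 gene lists (vertical axis). Filled points have an adjusted p under 0.05, the black tick is the median of the list, and the red dashed line is the median of all genes, −0.03. Root meristem (−1.78) and cell cycle (−1.04) medians lie on the left, and cytokinin response (2.41) on the right.

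Both measured root hair genes rose. EXPA18 and EXPA7, alpha-expansins of growing root hairs, were the 2 measured members of 11 listed root hair genes. EXPA18 read 4.60, 4.93 and 4.99 on day 0 and 6.46, 6.36 and 6.27 on day 3 (1.52 ± 0.18, adjusted p = 6e-07). EXPA7 read 5.43, 5.59 and 5.13 on day 0 and 6.49, 6.54 and 6.22 on day 3 (1.03 ± 0.18, adjusted p = 6.4e-05). In neither gene did the days overlap. Over all alpha-expansins, 4 of 8 measured members (of 18 listed) rose and 1 fell, against 13.6% and 17.9% of all genes. The median of the alpha-expansins was 0.39, and EXPA8 and EXPA9 rose by 0.85 ± 0.17 and 0.83 ± 0.15. GH9C1, an endoglucanase of root hairs that was chosen after its values were seen, read 4.87, 4.95 and 4.95 on day 0 and 6.96, 6.78 and 6.59 on day 3. Of 9 measured xyloglucan endotransglucosylases, XTH20 fell by 1.62 ± 0.13 and XTH32 rose by 0.63 ± 0.18, a call lost without upf3-1 day 3 replicate 1 (adjusted p = 0.075). PME61 was the 1 called gene of 4 measured pectin methylesterases and inhibitors, and rose by 1.03 ± 0.22. Of 4 measured subtilases, SBT4.12 rose by 1.13 ± 0.15 and SBT1.3 fell by 1.32 ± 0.22.

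Class III peroxidases, which act on hydrogen peroxide in the cell wall, moved in both directions. Of 50 measured members (of 67 listed), 20 rose and 7 fell, against 13.6% and 17.9% of all genes, with a median of 0.16. AT4G30170 read 3.27, 3.33 and 3.5 on day 0 and 7.52, 5.37 and 6.44 on day 3 (3.07 ± 0.36, adjusted p = 3.4e-07). All of its day 3 arrays were above day 0, but they spanned more than 2 log2 units. AT4G26010 rose by 2.41 ± 0.23 and AT1G68850 by 2.31 ± 0.24. AT4G08780 moved the other way, from 9.76, 9.78 and 9.52 to 7.36, 7.2 and 7.19 (−2.43 ± 0.15, adjusted p = 1.1e-11).

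Genes of small-molecule conjugation and detoxification were grouped by family. Over all genes, 13.6% were called higher and 17.9% lower. Of 12 measured glutathione S-transferases, 6 rose and 2 fell, with a median of 0.35. Apart from GSTU20, GSTU27 read 5.84, 6.43 and 6.36 on day 0 and 8.62, 8.0 and 8.33 on day 3 (2.11 ± 0.18), and GSTU22, GSTU25 and GSTU26 rose by 1.62, 1.35 and 1.32. Of 24 measured cytochrome P450 genes, 8 rose and none fell, with a median of 0.10. The share called was thus close to the 31.5% of all genes. CYP718 rose by 1.53 ± 0.24 and CYP71B37 by 0.99 ± 0.19, and CYP51G2, which the gene table lists as a transcribed pseudogene, rose by 1.08 ± 0.20. Of 43 measured UDP-glycosyltransferases, which attach sugars to small molecules, 9 rose and 5 fell, with a median of 0.06, so the share called was close to the 31.5% of all genes. UGT71C1 read 3.92, 3.63 and 3.82 on day 0 and 6.19, 4.86 and 5.83 on day 3, while UGT71C3, of the same subfamily, went from 8.17, 8.37 and 8.24 to 6.55, 6.06 and 6.32. The subfamily members thus changed in opposite directions, by 1.84 ± 0.27 and −1.95 ± 0.14. In the Bet v 1 family as a whole, 7 of 14 measured members (of 24 listed) rose and none fell, with a median of 0.41.

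Of 12 measured genes for salicylate and chitinase defence (of 25 listed), 4 rose and 2 fell, with a median of 0.27. The shares over all genes were 13.6% higher and 17.9% lower. AT2G43610, a chitinase family gene, rose from 6.76, 7.70 and 7.46 to 9.23, 8.79 and 9.59 (1.90 ± 0.25, adjusted p = 2.4e-06), while its relative AT2G43590 went from 5.84, 6.63 and 6.21 to 6.00, 5.15 and 5.35 (−0.73 ± 0.21, adjusted p = 0.0081). The days overlapped in the latter, and its call was lost without upf3-1 day 0 replicate 2 (adjusted p = 0.076), without day 3 replicate 2 (0.066), with the compared groups fitted alone (0.061) and with centring on the spike-in controls (0.15). WRKY53, a defence and senescence factor and the 1 called gene of 7 measured WRKY genes, fell by 0.81 ± 0.15. The class V chitinase ChiC read 4.34, 5.24 and 4.77 on day 0 and 5.79, 5.06 and 5.75 on day 3 (0.75 ± 0.25, adjusted p = 0.026). Its arrays overlapped, and the call was lost without day 0 replicate 1, day 0 replicate 3, day 3 replicate 1 or day 3 replicate 3. Without any of these 4 arrays the list counted 2 risers.

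Genes tied to NMD are described by counts, against 31.5% of all genes called, 13.6% higher and 17.9% lower. Of 6 measured NMD and exon junction factors (of 11 listed), AT1G15280 alone was called, at −0.25 ± 0.07 (adjusted p = 0.0086). Its difference was 0.091 and not called with centring on the spike-in controls, and the median of this list went from −0.07 to 0.27. Limma called none of the 3 measured reported NMD targets (of 16 listed, median 0.11), with 1 at an unadjusted p under 0.05. The kinase gene AT5G45430 differed by 0.20 ± 0.09 (adjusted p = 0.085), the transcribed pseudogene AT5G40920 by 0.11 ± 0.14 (adjusted p = 0.64) and the eIF5 family gene AT1G36730 by 0.03. Transcripts with a conserved upstream open reading frame, a short frame ahead of the main one that can lower translation and in some cases marks a transcript for NMD, included 5 risers and no fallers among 14 measured (of 27 listed), with a median of 0.09. bZIP44, a transcription factor whose frame responds to sucrose, went from 9.57, 9.26 and 9.39 to 10.91, 11.03 and 10.96 (1.56 ± 0.09, adjusted p = 4.2e-12). SAMDC, a decarboxylase of polyamine synthesis, went from 11.82, 11.87 and 11.71 to 12.31, 12.48 and 12.42 (0.61 ± 0.09, adjusted p = 7.7e-06). In both genes the days were separate. CPUORF47, named for its upstream frame, rose by 0.78 ± 0.16, AT5G09460 by 0.30 ± 0.09 and BZIP53 by 0.24. The call of AT5G09460 was lost without upf3-1 day 0 replicate 2 (adjusted p = 0.066), without day 3 replicate 2 (0.10) and with the compared groups fitted alone (0.062).

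Several lists held no called gene or very few. Limma called none of 5 measured flavonoid genes (of 14 listed, median 0.17), of which 1 had an unadjusted p under 0.05. That gene, UGT78D2, was at 0.23 (adjusted p = 0.0501) and was called in 7 of 15 alternatives, and 4 of the 5 rose with centring on the spike-in controls. Limma called none of 3 seed reserve, ABA and starvation genes (of 16 listed, median 0.04), of which 0 had one. Of 5 measured late embryogenesis abundant genes, 2 fell, against 17.9% of all genes. LEA4-5, 1 of these 2, fell by 0.69 ± 0.22 (adjusted p = 0.02). Neither remained called when upf3-1 day 0 replicate 1, day 3 replicate 2 or day 3 replicate 3 was left out. NRT2.5, a high-affinity nitrate transporter, was at −0.38 ± 0.11 (adjusted p = 0.012), a call lost without upf3-1 day 0 replicate 2 (0.15), with the compared groups fitted alone (0.11) and with centring on the spike-in controls (0.85). KINESIN-13A was at −0.19 ± 0.07 (adjusted p = 0.059) and at 0.15 with centring on the spike-in controls. None of 9 measured reference genes (of 10 listed) was called by limma, 1 had an unadjusted p under 0.05, and their median was −0.00, or 0.33 with that centring. For the lists of endodermis, xylem, phloem, nitrate uptake, cytosolic ribosomal proteins, pectin lyase-like enzymes, SAUR-like proteins, leucine-rich repeat kinases, heat shock proteins and lipid transfer proteins, 0 members were measured.

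The replicates of day 3 were less alike than those of day 0 in the strongest changes. Averaged over the 318 genes that rose at least 2-fold, the day 0 arrays read 5.58, 5.54 and 5.57 and the day 3 arrays 7.53, 7.02 and 7.30. Replicate 1 was the highest day 3 array in 200 of these genes (62.9%) and replicate 2 the lowest in 208 (65.4%). Over the 207 genes that fell at least 2-fold, the day 0 arrays read 7.39, 7.41 and 7.44 and the day 3 arrays 5.96, 5.75 and 5.89. Replicate 2 was the lowest day 3 array there as well, in 119 genes (57.5%). Replicate 2 thus had the lowest mean among the day 3 arrays for risers and fallers alike. These genes were chosen by this same comparison, so the averages are a description. Hybridization controls in day 3 replicates 1, 2 and 3 read 8.80, 8.69 and 8.61, and the poly-A spike-in controls 5.70, 5.76 and 5.52. The part of these in the result was not tested. On day 6, the same risers averaged 6.90, 7.10 and 7.10 and the fallers 5.61, 5.60 and 5.62 in upf3-1.

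**Figure D3:**
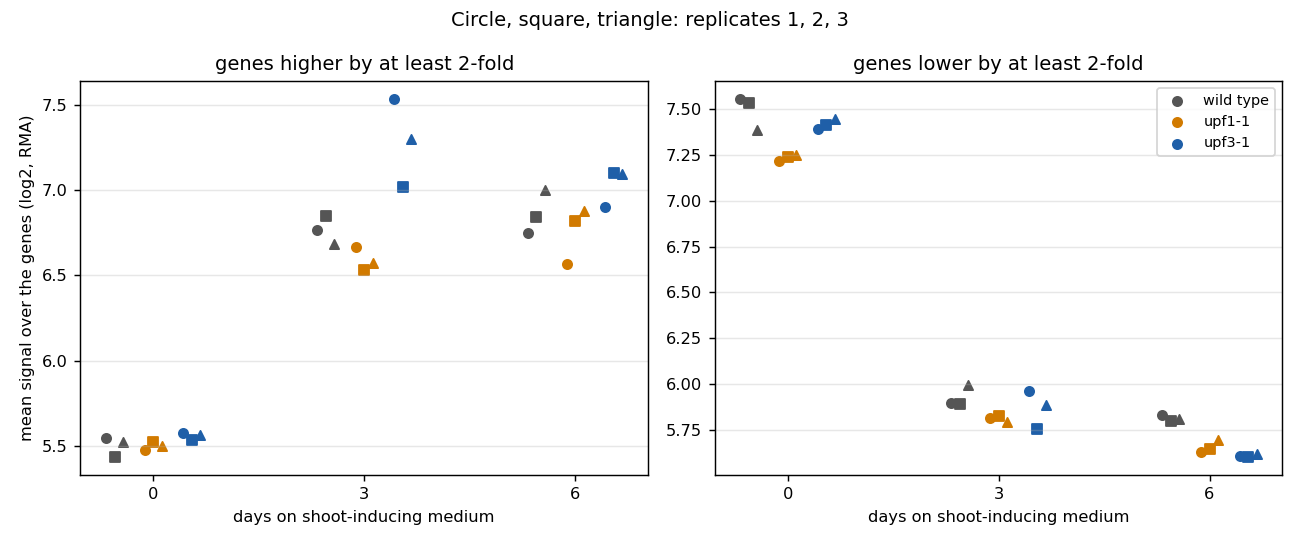
Mean log2 RMA signal of the genes called at least 2-fold higher (318 genes) or lower (207 genes) on day 3 in upf3-1, for each of the 27 arrays by day and genotype. Circles, squares and triangles are replicates 1, 2 and 3. The upf3-1 day 3 arrays lie at 7.02 to 7.53 for the risers and at 5.75 to 5.96 for the fallers.

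The same days were compared in the other genotypes with the same model, on arrays that are not shared with upf3-1. The wild type gave 3793 calls (28.5%), 1717 higher (12.9%) and 2076 lower (15.6%), and upf1-1 gave 2863 (21.5%), 1370 higher (10.3%) and 1493 lower (11.2%). Of the upf3-1 risers, 1136 were also called higher in the wild type, which is 63.0% of the upf3-1 risers and 66.2% of the wild type ones. Of the upf3-1 fallers, 1505 were also called lower in the wild type (63.3% and 72.5%). Another 14 genes were called in opposite directions. With upf1-1, 972 risers (53.9% and 70.9%) and 1164 fallers (49.0% and 78.0%) were shared, and 22 genes were opposite. In upf3-1, 528 risers and 721 fallers were called in neither of the other genotypes. A call in 1 genotype only does not show that the genotypes differ. The difference in the change itself was called, against at least 1 of the genotypes, for 33 of those risers and 19 of those fallers.

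The change in upf3-1 differed from that in the wild type for 88 genes (0.662%), 56 of them more positive in upf3-1 (0.421%) and 32 more negative (0.241%). It differed from that in upf1-1 for 186 genes (1.4%), 128 more positive (0.963%) and 58 more negative (0.437%). These counts depended on upf3-1 day 3 replicate 2. Without it they were 316 and 425, while without upf3-1 day 3 replicate 1 they were 48 and 85. Without wild type day 0 replicate 1 or wild type day 3 replicate 3 the count against the wild type was 48 or 50, and without upf3-1 day 3 replicate 3 it was 57. Against upf1-1, the count was 102 without upf3-1 day 3 replicate 3, 120 without upf3-1 day 0 replicate 2, and 106, 117 and 119 without upf1-1 day 0 replicate 1, day 3 replicate 2 and day 3 replicate 3. Of the 56 genes more positive than in the wild type, 22 rose in upf3-1 and were not called in the wild type, 12 rose in both and 10 rose in upf3-1 but fell in the wild type. Both differences were called for 33 genes, 30 more positive in upf3-1 and 3 more negative.

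**Figure D4:**
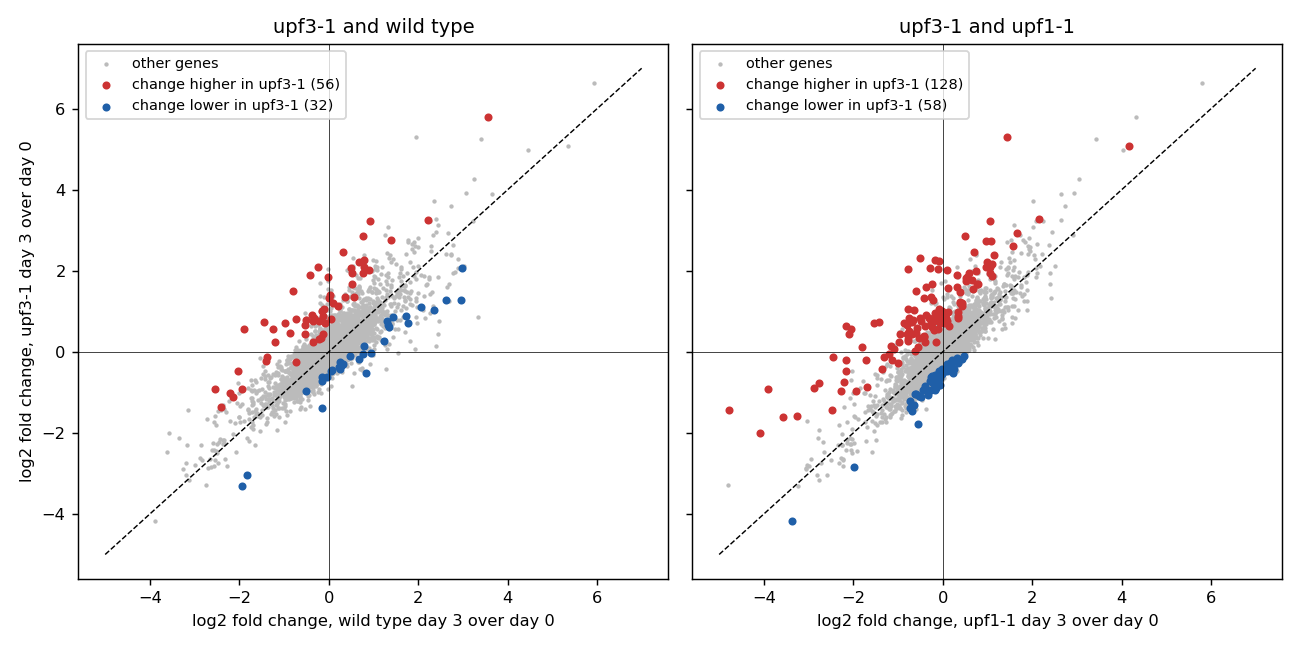
Log2 change from day 0 to day 3 in upf3-1 (vertical axis) against the same change in the wild type (left) and in upf1-1 (right), 1 point per gene. Red points are genes whose change was called more positive in upf3-1 (56 and 128) and blue points more negative (32 and 58).

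Several genes rose further in upf3-1 than in 1 or both of the other genotypes. AT3G45680 read 4.65, 4.72 and 4.87 on day 0 and 8.86, 7.30 and 7.76 on day 3 in upf3-1, a change of 3.23 against 0.93 in the wild type and 1.07 in upf1-1. The change was larger by 2.30 (adjusted p = 0.0058) and 2.16 (adjusted p = 0.0043). The Bet v 1 family gene AT3G26460 read 2.45, 2.12 and 2.09 on day 0 and 6.24, 4.25 and 4.77 on day 3 in upf3-1, while the wild type read 2.39, 2.28 and 2.37 and then 3.03, 3.41 and 2.92. All day 0 values lay near the lowest value of the table, 2.04, where log2 differences are compressed, and no detection call was used here. Its change exceeded that of the wild type by 2.09 (adjusted p = 0.012) and that of upf1-1 by 2.36 (adjusted p = 0.0022). AT4G11190 changed by 5.79 in upf3-1 and by 3.56 in the wild type, a difference of 2.24 (adjusted p = 0.0065). AT2G16005 changed by 5.31 in upf3-1 and 1.43 in upf1-1, a difference of 3.88 (adjusted p = 0.021). That call was lost without upf3-1 day 3 replicate 1, upf1-1 day 0 replicate 3, upf1-1 day 3 replicate 2 or upf1-1 day 3 replicate 3. The response of RR16 was larger in upf3-1 than in upf1-1 by 1.29 (adjusted p = 0.025) in all arrays, but not in 6 of the 12 fits that left out 1 array.

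Other genes had a positive day 3 difference in upf3-1 and a negative one in the wild type. The chitinase family gene AT2G43610 rose by 1.90 in upf3-1 and differed by −0.42, which was not called, in the wild type (difference 2.32, adjusted p = 0.0028). On day 0, upf3-1 read 6.76, 7.70 and 7.46, below all of the wild type arrays at 8.61, 7.76 and 8.22. In upf1-1, AT2G43610 was also higher in every day 3 array, at 6.72, 6.77 and 7.04 and then 8.26, 7.81 and 7.87. ChiC, at 0.75 in upf3-1, fell by 1.45 in the wild type, from 5.80, 5.28 and 6.23 to 4.23, 4.42 and 4.32. The difference between these changes was 2.2. On day 0, upf3-1 read 4.34, 5.24 and 4.77, below all of the wild type arrays. AT3G22060 changed by 1.5 in upf3-1, with −0.81 in the wild type and −0.59 in upf1-1 (differences 2.31, adjusted p = 0.0058, and 2.09, adjusted p = 0.0057). AT5G44380 differed by 0.56 ± 0.30 in upf3-1 (adjusted p = 0.18), by −1.90 in the wild type and by −2.05 in upf1-1. On day 0 it read 6.43, 7.69 and 6.98 in upf3-1, below all upf1-1 arrays at 8.53, 8.93 and 8.93. The wild type day 0 arrays, at 8.36, 7.28 and 8.41, overlapped those of upf3-1. Across the 12 defence genes, the wild type had no riser and 3 fallers, against 12.9% and 15.6% of all genes. In upf1-1 there were 2 risers and 2 fallers, against 10.3% and 11.2%. In upf3-1 there were 4 risers and 2 fallers, and the risers became 2 when 1 of several arrays was left out, as given above.

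For other genes upf3-1 stood apart from 1 or both of the other genotypes on day 0. AT1G60590 fell by 0.91 in upf3-1, from 3.70, 4.14 and 3.81 to 2.84, 3.08 and 2.98. In upf1-1 it fell from 6.68, 7.01 and 6.77 to 2.95, 2.80 and 3.02, and in the wild type from 6.12, 4.94 and 5.84 to 2.64, 3.53 and 3.08. The genotypes were apart on day 0 and met on day 3. All day 3 values, 2.64 to 3.53, lay near the lowest value of the table, 2.04, where log2 differences are compressed. AT1G67750 read 7.10, 8.27 and 7.54 on day 0 in upf3-1 and 7.11, 5.07 and 6.41 on day 3. In upf1-1 it went from 9.59, 9.82 and 9.54 to 5.02, 4.58 and 4.98. The wild type day 0 arrays, at 8.70, 7.56 and 8.73, overlapped those of upf3-1. The change of AT1G67750 in upf3-1 was 3.35 above that of upf1-1 (adjusted p = 0.00063). EXPA7 started higher in upf3-1 than in the wild type, which read 4.24, 3.96 and 4.26 on day 0, and ended at a similar level, with 6.56, 6.48 and 6.50 in the wild type. The difference between the changes was −1.33 (adjusted p = 0.0086).

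Some responses were smaller or more negative in upf3-1 than in 1 or both of the other genotypes. The glutaredoxin AT4G15700 rose by 1.28 in upf3-1, from 2.35, 2.67 and 2.55 to 3.97, 3.81 and 3.63, and by 2.96 in the wild type (difference −1.68, adjusted p = 0.0068). Its day 0 values in the 3 genotypes, 2.35 to 3.04, lay near the lowest value of the table, 2.04. In upf1-1, AT4G15700 went from 2.70, 3.04 and 2.50 to 3.55, 4.54 and 4.01, so the smaller rise was seen in both mutants. AT1G19160 went from 5.24, 5.30 and 5.01 to 3.88, 3.71 and 3.81 in upf3-1, while its change in the wild type was −0.16 (difference −1.23, adjusted p = 0.00039). The bHLH gene AT2G43140 went from 5.75, 6.4 and 6.38 to 4.61, 4.06 and 4.54 in upf3-1, and its change differed from that in upf1-1 by −1.22 (adjusted p = 0.0065). That call was lost with centring on the spike-in controls and with the compared groups fitted alone (adjusted p = 0.055 in both). AT2G43140 was lower on day 0 in all upf1-1 arrays, at 4.64, 4.83 and 5.1, than in upf3-1. On day 3 the upf1-1 arrays, at 4.03, 4.39 and 4.49, overlapped those of upf3-1. In the wild type AT2G43140 was also lower in every day 3 array than in every day 0 array. The days did not overlap in upf3-1 for any of these genes, and AT1G19160 was higher on day 0 in all upf3-1 arrays than in the other genotypes. The change of the pseudogene AT2G17490 differed from that in the wild type by −1.20 (adjusted p = 0.0041), a call lost when the compared groups were fitted alone. It read 5.44, 5.72 and 6.13 on day 0 in upf3-1 against 4.82, 4.35 and 4.3 in the wild type, and all day 3 arrays of both lay between 2.52 and 2.86, near the lowest value of the table.

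**Figure D5:**
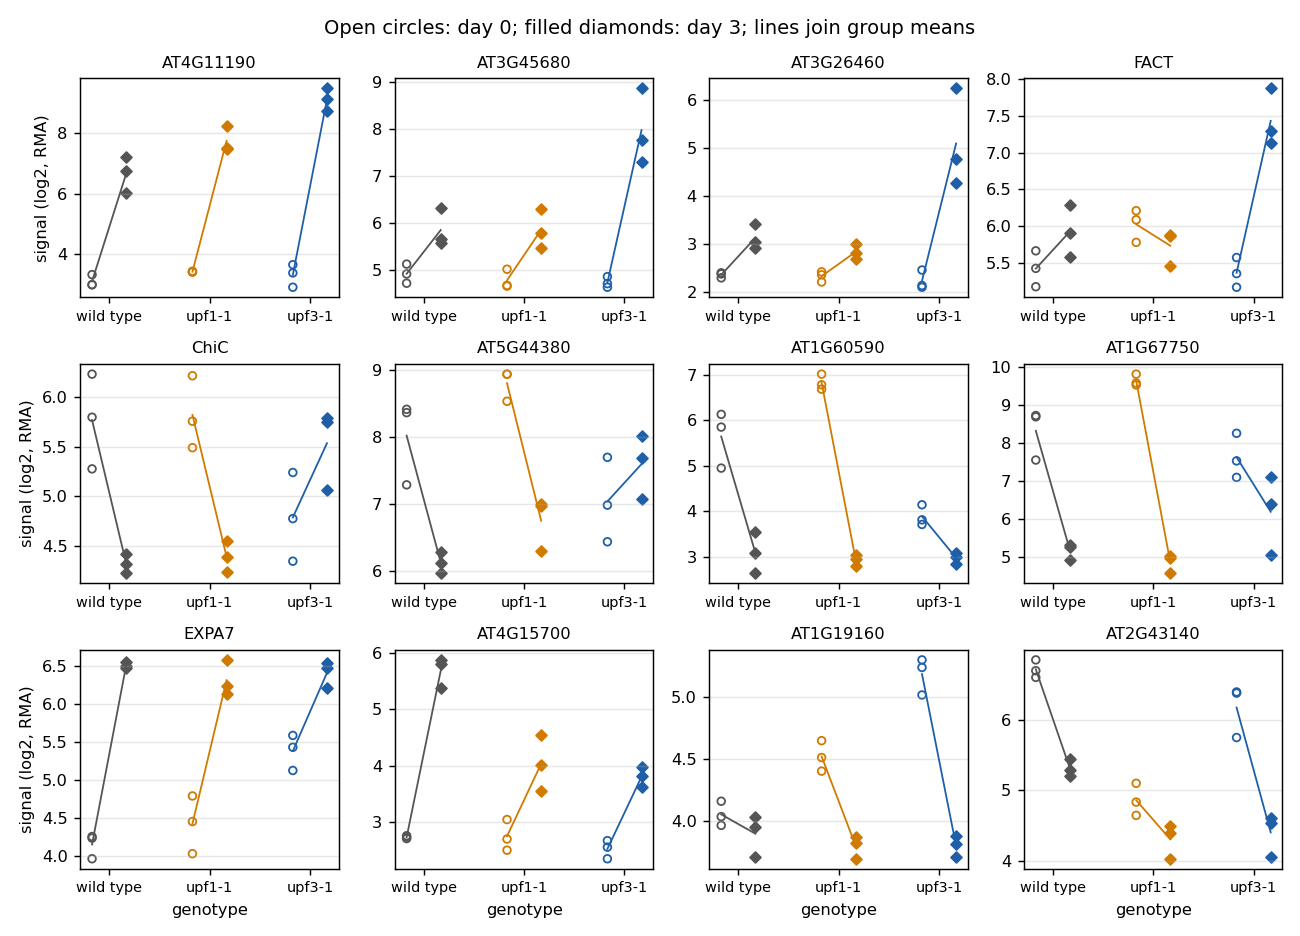
Log2 RMA signal of 12 genes whose change from day 0 to day 3 differed between upf3-1 and another genotype. Open circles are day 0 arrays and filled diamonds day 3 arrays, 3 each for the wild type, upf1-1 and upf3-1. AT3G45680 and AT3G26460 end higher in upf3-1, from overlapping day 0 values. AT1G60590 starts lower in upf3-1 and ends alike, near the lowest value of the table.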

How the data were processed

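The authors deposited a log2 signal for each probe set, computed with RMA per the submitters' processing notes. The version of RMA was not found in the sources used here. Of 22810 probe sets, 13436 had 1 gene symbol matched to a RefSeq gene table (TAIR10.1, names only), which gave 13286 genes after the probe set with the highest mean was kept for each gene. Groups and replicate numbers follow the sample labels. The design text of the series does not name day 6, so the labels were followed. Precision is limited by the number of arrays, and the SD over genes of log2 differences between replicates was 0.197 to 0.295.

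limma 3.58.1 in R 4.3.3 (lmFit, contrasts.fit and eBayes) was fitted to all 27 arrays with 1 mean per group. Two-sided p-values were adjusted over all genes by Benjamini-Hochberg, and a gene was called at an adjusted p under 0.05. The procedure was tested on simulated data with the spread of each gene and independent normal noise. Of 13286 genes, 200 were changed, far fewer than the 31.5% called here, so the simulation does not give the error rate of this comparison. The procedure called 56 of the 67 genes with a 1.5-fold change, 66 of the 67 with a 2-fold change and all 66 with a 4-fold change. It also made 18 false calls.

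The genes named are UPF3, the 12 highest and 12 lowest called genes without overlap between days, up to 4 called members of each list (the 2 with the smallest p where none was called), and the 6 or 4 highest and lowest called differences between genotypes. Other list members are named to complete a count, and further genes were chosen after their values were seen. The genes and lists were chosen with earlier results of these data known. A list is described by its counts and median only. Keywords for AP2/ERF factors and aquaporins were dropped because they matched clone names or an unrelated gene. The alternatives were centring on reference genes or spike-in controls, a signal minimum, all probe sets, sets free of cross-hybridisation, the groups compared alone, a trended and robust fit, a replicate block, the other deposited table and leaving out each array.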

Additional observations from a re-analysis of the deposited data

Results flagged for a closer look

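The change from day 0 to day 3 in upf3-1 differed from that of the wild type for 88 genes and from that of upf1-1 for 186 genes, by a limma test of the difference itself (adjusted p under 0.05). Each value in parentheses after a gene below is such a log2 difference, upf3-1 change minus the other change.

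Against the wild type, changes were more positive in upf3-1 for AT5G44380 (2.45), AT1G50060 (2.33), AT2G43610 (2.32), AT3G22060 (2.31), AT3G45680 (2.30), AT4G11190 (2.24), ChiC (2.2), AT3G26460 (2.09) and AT1G60590 (1.64). They were more negative for AT4G15700 (−1.68), GH3.1 (−1.36), AT4G15660 (−1.35), BAT1 (−1.35), EXPA7 (−1.33), AT1G19160 (−1.23) and AT2G17490 (−1.20). GH3.1 fell by 3.3 in upf3-1 and by 1.94 in the wild type. In upf1-1, GH3.1 went from signals of 7.81, 7.88 and 8.17 to 4.32, 4.91 and 4.93, a fall close to that of upf3-1. AT4G15660 read 3.57, 3.36 and 3.15 on day 0 and 4.36, 4.87 and 4.59 on day 3 in upf1-1. In upf3-1 it read 3.22, 2.79 and 3.33 and then 4.26, 4.56 and 4.37.

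Against upf1-1, changes were more positive for AT2G16005 (3.88), AT1G67750 (3.35), AT1G60590 (2.98), AT1G49450 (2.84), AT5G44380 (2.61), AT3G26460 (2.36), ChiC (2.18), AT3G45680 (2.16), AT3G22060 (2.09), RR16 (1.29), GSTU20 (1.14) and AT4G23680 (0.92). They were more negative for AT2G43140 (−1.22), AT1G05577 (−0.85), AT4G09940 (−0.83), AT3G27150 (−0.78), AT1G19160 (−0.66) and PRL (−0.41). Every one of these negative calls against upf1-1 was lost with centring on the spike-in controls. Those of AT1G19160 and PRL were also lost with centring on the reference genes.

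Leaving out 1 of the 12 arrays of a difference ended some of these calls. Against the wild type, AT1G50060 was lost in 10 of 12 fits, BAT1 in 8, GH3.1 in 6 and AT1G60590 in 2 (without wild type day 0 replicate 1 or day 3 replicate 1). Against upf1-1, PRL was lost in 9, GSTU20, AT3G27150 and AT4G23680 in 8 each, AT1G19160 in 7, RR16 and AT4G09940 in 6 each and AT2G16005 in 4. The highest adjusted p among these fits was 0.121, for PRL. The other 22 differences were called in all 12 fits. Fitting the compared groups alone ended the calls of AT1G50060, AT1G60590, GH3.1, AT2G17490, AT3G26460 and AT5G44380 against the wild type and of GSTU20, AT2G16005, RR16, AT2G43140, PRL, AT4G09940 and AT4G23680 against upf1-1.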

How the results depend on the processing

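The 4181 calls of upf3-1 day 3 over day 0 became 7786 over all probe sets, where more features are tested, and the wild type, upf1-1 and the differences against them became 7098, 5484, 225 and 466. With centring on the spike-in controls the calls were 1394 in upf1-1 and 56 for the difference against the wild type, and the share of higher calls in upf3-1 went from 43.1% to 91.6% (47.8% with reference genes). For the difference against the wild type that share went from 63.6% to 80.4%, and against upf1-1 from 68.8% to 100%. That difference against the wild type was called for 44 genes when the compared groups alone were fitted and for 48 with a mean signal of at least 6. Leaving out 1 array gave 3589 to 3857 calls in upf3-1, 3071 to 3655 in the wild type, 2263 to 2469 in upf1-1, 48 to 316 for the difference against the wild type and 85 to 425 against upf1-1; the arrays behind the extremes are named above, and the cause was not tested. AT1G15280 (NMD list) and AT2G46140 (late embryogenesis family) turned from −0.25 and −0.26 to 0.091 and 0.077 with spike-in centring. With the replicate number as a block, the calls were 4134, 3719, 2815, 87 and 161, and AT3G27150 and PRL lost the call of their difference against upf1-1. Same-numbered replicates of days 0 and 3 correlated in their deviations at −0.10 to −0.04 in upf3-1 and −0.16 to −0.06 in upf1-1, but at 0.11 to 0.26 in the wild type, where each correlated best with its own number. The labels do not say that the numbers mark pairs. The second deposited table holds the same values in every cell, so its 4181 calls were bound to be the same and are no separate check.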

Other observations

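Among genes with a symbol that no list held, chosen after their values were seen, FACT, an acyltransferase that makes the caffeate esters of suberin-associated waxes, read 5.58, 5.36 and 5.17 on day 0 and 7.87, 7.13 and 7.29 on day 3 in upf3-1. Its log2 change of 2.06 exceeded that of the wild type (0.50) by 1.56 (adjusted p = 0.0083) and that of upf1-1 (−0.29) by 2.35 (adjusted p = 8e-05). HPR, the peroxisomal hydroxypyruvate reductase of photorespiration, went from 5.34, 5.79 and 5.81 to 6.68, 7.25 and 7.22 in upf3-1, while the wild type read 5.11, 5.31 and 5.14 and then 5.21, 5.36 and 5.10. The upf3-1 arrays rose in all replicates, and the difference from the wild type was 1.37 (adjusted p = 0.0028). ALPHA-VPE, a vacuolar processing protease, changed by 0.45 in upf3-1 and by −2.09 in upf1-1, a difference of 2.54 (adjusted p = 3.3e-08), with day 0 levels of 5.99, 6.22 and 5.93 against 7.92, 7.72 and 7.78. CHIL, a chalcone isomerase-like protein that enhances flavonoid synthesis, went from 5.29, 5.24 and 5.36 to 8.78, 7.50 and 7.82 in upf3-1, a change of 2.74 that exceeded that of upf1-1 by 1.76 (adjusted p = 0.013).

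Autophagy genes grouped by symbol in the same way included 5 risers and no fallers in upf3-1 among 8 measured, with a median of 0.42. The shares over all genes in upf3-1 were 13.6% higher and 17.9% lower. ATG8E, a ubiquitin-like protein of the autophagosome membrane, read 6.32, 5.38 and 6.03 on day 0 and 7.17, 7.32 and 7.2 on day 3, a change of 1.32 ± 0.17. ATG8F rose by 0.83, ATG8H by 0.72, ATG8B by 0.58 and ATG3, the enzyme that conjugates ATG8, by 0.26. Of 4 measured jacalin-related lectins, 3 rose. JAL22 went from 9.63, 9.86 and 9.66 to 11.60, 11.28 and 11.62 in upf3-1, and its change was 1.12 above that of upf1-1 (adjusted p = 0.0013). Of 14 measured bZIP genes, which include bZIP44 and BZIP53, 7 rose and none fell.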
